A study of Mus musculus with 37 samples.

Results

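The growth of knockout muscle was read from gastrocnemius libraries of SMNKO mice, in which Nampt was knocked out in skeletal muscle only, at 2 and 4 weeks of age. The libraries were chosen by genotype and age alone and make up 10 of the 37 libraries of the series, 5 at each age. The 2-week libraries carry the numbers 22, 28, 29, 30 and 31 and the 4-week libraries the numbers 7, 8, 10, 11 and 12, and values below are always given in that order. Each number was read as 1 animal, although the labels state no more than the number, so p-values measure the spread between these samples. At each of the same ages 6 wild-type (WT) libraries show how the muscle changes when Nampt is present. Total RNA was depleted of ribosomal RNA and sequenced as stranded 38-bp paired ends. The Cre driver, the strain and the deleted exons are not given in the sources used here. Animals were labelled by sex at 4 weeks but not at 2 weeks. By the counts of Xist and Ddx3y, 2 libraries at each knockout age were female and 3 were male, and animal 12, which is labelled male, read as female. The comparison asks how far postnatal maturation of the muscle proceeds without Nampt.

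NAMPT makes nicotinamide mononucleotide from nicotinamide and is the rate-limiting enzyme of the salvage route to NAD, the carrier of electrons in glycolysis, the citrate cycle and respiration and the substrate of sirtuins and PARP enzymes. Nicotinamide riboside kinases, NMRK1 and the muscle form NMRK2, open another route to NAD. In mouse limb muscle the weeks around weaning bring a switch from embryonic and perinatal to adult myosins, the loss of fetal imprinted transcripts, the end of most cell division, and a rise of glycolytic enzymes and of the calcium release apparatus in fast fibres.

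Total counts ran from 16827002 to 21888652 in the knockout libraries at 2 weeks and from 6668855 to 20997634 at 4 weeks. Animal 8 stood apart: 29.3% of its counts fell in nuclear rRNA genes, against 0.0437% to 0.777% in the other 4 libraries of its age, and its 10 most abundant genes held 65.2% of its counts. Values without this animal are given where its removal ends or makes a call, turns a sign or moves a value by over 1.5 times. Among the 4-week WT libraries 2 were also rich in rRNA, animal 3 with 11.6% and animal 4 with 8.49%, against 0.00644% to 0.106% in the other 4. Sequencing pools were unbalanced, with 4 libraries in pool A and 1 in pool B at 2 weeks and 2 in pool A and 3 in pool B at 4 weeks, and pool was a term of the model. The 12 markers of skeletal muscle fixed for this tissue summed to between 182824 and 195230 normalised read counts (CPM, scaled by library size and TMM factor) at 2 weeks and between 243852 and 269166 CPM at 4 weeks.

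Nampt (12:32819545-32853349, GRCm38) was detected at both ages and rose 1.92-fold between them. It read 32.7, 35.5, 36.1, 32.3 and 34.1 CPM at 2 weeks and 77.3, 57.0, 64.6, 55.1 and 64.1 CPM at 4 weeks, so the ages did not overlap. The mean was 34.1 ± 1.66 CPM (SD, n = 5) at 2 weeks and 63.6 ± 8.72 CPM (n = 5) at 4 weeks. The log2 change was 0.94 (SE 0.10), with p = 0.00794 in an exact two-sided permutation test, the smallest p that the splits of 5 against 5 allow. With library sizes alone and no scaling factor the change was 0.34 (adjusted p = 0.283). WT muscle held 65.5 ± 9.50 CPM (n = 6) at 2 weeks and 128 ± 19.7 CPM (n = 6) at 4 weeks, a log2 change of 0.97 (SE 0.11). The difference between the 2 changes was -0.07 (SE 0.16, adjusted p = 0.926). Whole gastrocnemius also holds cells outside the targeted fibres, and whether the residual counts came from them or from transcripts of the targeted locus was not tested.

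Of the other genes of NAD synthesis and use, the one with the largest change was Nmrk2. It read 35.5, 42.2, 44.4, 123 and 21.6 CPM at 2 weeks and 334, 628, 265, 136 and 561 CPM at 4 weeks, a rise of 3.28 (SE 0.58, adjusted p = 0.00252) on the log2 scale. All 4-week values lay above all 2-week values, although animal 11 at 136 CPM was close to animal 30 at 123 CPM. In WT muscle Nmrk2 stayed low, at 13.8 ± 1.38 CPM and 23.3 ± 11.2 CPM (change 0.68, adjusted p = 0.191), and the difference between the genotypes' changes, 2.29, had an adjusted p of 0.33. Nmrk1 did not pass the test, at 3.91 ± 0.523 and 3.85 ± 1.12 CPM. Nmnat1 and Nmnat3, which convert the mononucleotide to NAD, rose by 0.70 (SE 0.13) and 0.51 (SE 0.09), and the NAD-dependent deacetylase Sirt2 rose by 0.55 (SE 0.08); with library sizes alone Nmnat3 read -0.12 and Sirt2 -0.09. Of the 28 genes of the list 24 were tested, 7 rose and 4 fell, against 19.4% higher and 19.9% lower over all genes. Without animal 8, 26 were tested, 8 rose and 3 fell. The median of 0.10 read 0.24 without animal 8 and -0.48 with library sizes alone.

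Across the transcriptome the knockout muscle changed broadly in these 2 weeks. Of 14537 genes tested, 5704 (39.2%) changed at an adjusted p below 0.05, 2816 of them higher (19.4%) and 2888 lower (19.9%) at 4 weeks. By more than 2-fold, 466 rose and 1190 fell, so the large changes were mostly losses. The CPM of the 2 ages did not overlap for 4153 genes (28.6%). Most genes named below were chosen by this same change, so their separation of the ages describes them and adds no support. Without animal 8, 6623 of 15067 genes (44%) changed, and 5189 of the 5704 calls (91.0%) were kept with none of the 5704 genes turning sign. The TMM scaling factors, which correct for the share of counts taken by a few abundant genes, were 1.2 to 1.26 at 2 weeks and 0.445 to 0.965 at 4 weeks. With library sizes alone the median log2 change of all genes moved from -0.00508 to -0.613 and the share of calls that were rises moved from 49.4% to 3.19%. Directions below are relative to the TMM scale, and those that turn on the other scale are named.

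The same change in WT muscle covered 8343 of 15296 genes (54.5%) in a fit of the 22 libraries of both genotypes, in which 7065 genes (46.2%) changed in the knockout. In that fit 3666 genes rose and 3399 fell in the knockout, and 4125 rose and 4218 fell in WT muscle. List counts of the 2 genotypes stand beside these unequal totals. The libraries of the 2 genotypes are different animals, so neither change shares a sample with the other. Below, knockout changes come from the 10-library fit, and WT changes and differences from the 22-library fit; where a list is compared between genotypes its knockout count in the 22-library fit is given too. Of the 8343 WT calls, 8022 (96.2%) had the same sign in the knockout and 5676 (68.0%) were also called there in the same direction; over all genes tested 83.7% had the same sign. The slope of the knockout change on the WT change was 0.856 over the WT calls. Choosing genes by their call in one genotype favours large values in that genotype, and in the reverse choice, over the 7065 knockout calls, the slope of the WT change on the knockout change was 0.796. Among changes of more than 2-fold the result depended on the genotype in which genes were chosen. The 494 genes that rose that far in the knockout had a slope of 0.592 in WT muscle, where 69.4% were called, and the 1251 that fell had a slope of 0.840, where 86.9% were called. Chosen in WT muscle, the 376 rises had a slope of 0.913 in the knockout, where 84.3% were called, and the 1329 falls a slope of 0.836, where 74.0% were called.

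**Figure D1:**
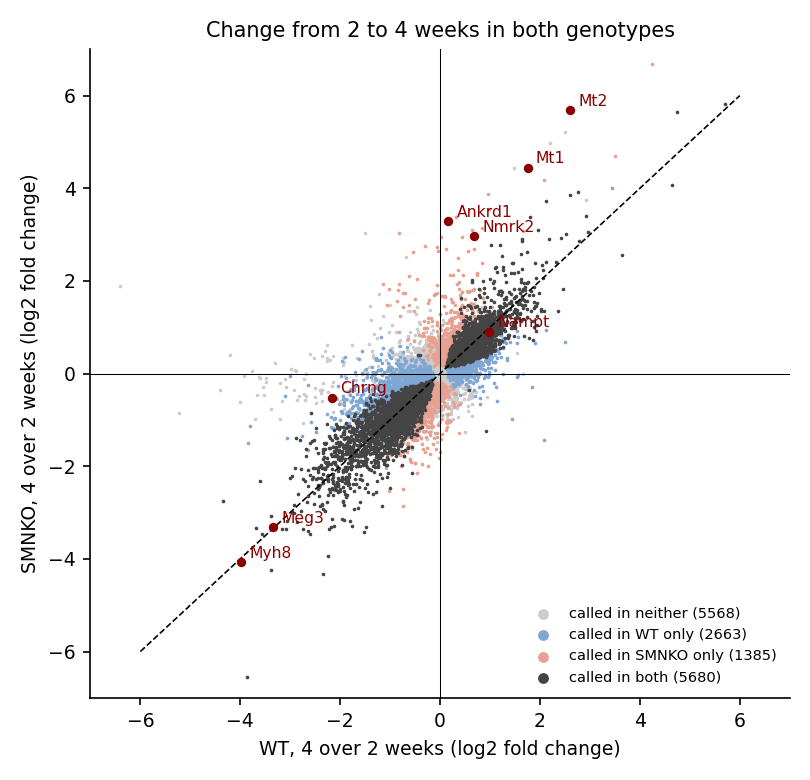
Log2 change from 2 to 4 weeks in WT muscle (horizontal) and SMNKO muscle (vertical) for each gene tested in the 22-library fit, coloured by the genotype in which it was called; the dashed line marks equal change. Of the genes shown, 5680 were called in both genotypes, 2663 in WT only and 1385 in SMNKO only, and the cloud follows the diagonal with the labelled stress genes above it.

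A direct test of the difference between the knockout and the WT change passed for 1 of 15296 genes (0.00654%), while 1647 (10.8%) had an unadjusted p below 0.05. That gene was Ift122 (6:115853470-115926699, GRCm38), a subunit of the intraflagellar transport machinery of cilia. It read 30.3, 29.2, 30.6, 28.8 and 27.4 CPM in the knockout at 2 weeks and 44.1, 46.2, 41.9, 42.5 and 45.6 CPM at 4 weeks, with no overlap. In WT muscle it went from 26.5 ± 1.72 to 24.6 ± 3.56 CPM (n = 6 each). The difference was 0.77 (SE 0.12, adjusted p = 0.0118), and the knockout change itself, 0.62 (SE 0.08), read -0.02 with library sizes alone. The count of genes called for the difference was 43 with DESeq2, 239 in pool A alone, 0 in pool B alone, and between 0 and 46 when single libraries were left out, the highest without knockout animal 10 and 15 without knockout animal 11. Genes called in both genotypes with opposite signs were 4. They were Cd55 (WT 0.58, knockout -0.36), Anxa4 (-0.45 and 0.39), the Z-disc actinin Actn2 (-0.40 and 0.39) and Prss55 (0.93 and -1.24), with adjusted p-values for the difference of 0.0553 for Cd55 and 0.296 for the others.

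To place each library on the maturation path, its log2 CPM over the 8343 WT-called genes was projected on the line from the WT 2-week mean, set at 0, to the WT 4-week mean, set at 1. The knockout libraries at 2 weeks sat at -0.00571, -0.0533, 0.0469, 0.0752 and -0.0440, a mean of 0.00382 ± 0.0561 (SD, n = 5). At 4 weeks they sat at 0.941, 0.740, 0.969, 0.835 and 0.792, a mean of 0.855 ± 0.0977. The WT libraries at 4 weeks, which average 1 by construction, ran from 0.880 to 1.17, and the 2 highest were the rRNA-rich animals 3 (1.09) and 4 (1.17). The genes and both ends of the line were chosen on the WT libraries, which favours distance between the WT ages, so a knockout value under 1 is a description with no test. Animals 7 and 10 lay within the span of the WT libraries and animals 8, 11 and 12 below it. Without animal 8 the knockout mean was 0.884 ± 0.0845, and without the 3 rRNA-rich libraries of both genotypes it was 0.904 ± 0.0949. With library sizes alone and no scaling factor, the 5 knockout libraries at 4 weeks averaged 0.924 ± 0.231. Over the 4125 genes that rise in WT muscle the 4-week knockout mean was 0.820 ± 0.143, and over the 4218 that fall it was 0.870 ± 0.0816. The 2 pool A libraries averaged 0.840 and the 3 pool B libraries 0.865.

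**Figure D2:**
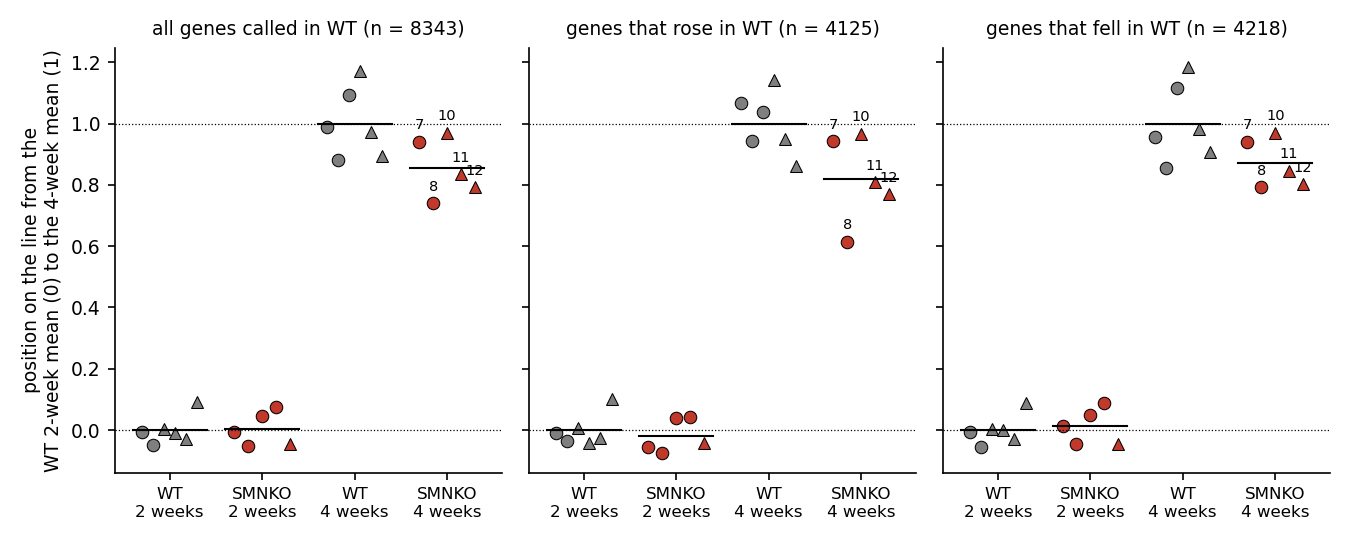
Position of each library between the WT 2-week mean (0) and the WT 4-week mean (1) over genes called in WT muscle; points are libraries (circles pool A, triangles pool B), numbers are knockout animals and bars are group means. The knockout libraries start at the WT level at 2 weeks and lie between 0.740 and 0.969 at 4 weeks, partly within the WT span of 0.880 to 1.17.

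The 12 largest rises in the knockout, among well-measured genes called with and without animal 8, included Mt2, Mt1, Inmt, Arrdc2, Bdh1, Cnksr1, Ankrd1, Syt12, Cyp2e1 and Nmrk2. Arrdc2, an arrestin-domain adaptor, rose by 3.98 (SE 0.58) and Bdh1, which interconverts ketone bodies, by 3.90 (SE 0.56); the WT changes were 2.61 and 2.12. Cyp2e1 rose by 3.32 (WT 2.43), Inmt by 4.41 (WT 2.76), Cnksr1 by 3.5 (WT 1.80) and Syt12 by 3.39 (WT 1.97), all 4 called in both genotypes. Animal 7 was the highest of the 4-week libraries for Arrdc2 (130 CPM against 13.5 to 27.4), Bdh1, Inmt and Cyp2e1.

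The metallothioneins Mt1 and Mt2, which bind zinc and copper, and Ankrd1, which is induced in strained or injured muscle, differed strongly between the 4-week animals. Mt1 read 5.52, 5.89, 5.52, 8.15 and 5.11 CPM at 2 weeks and 116, 413, 9.93, 8.12 and 116 CPM at 4 weeks. Animals 7, 8 and 12 were high and animals 10 and 11 stayed near the 2-week level, so the ages overlapped. Mt2 followed, with 0.453 to 1.09 CPM at 2 weeks and 25.3, 171, 1.21, 1.14 and 26.9 CPM at 4 weeks; 73.5% of its exon bases overlap a gene on the other strand. Ankrd1, a titin-associated ankyrin protein, read 4.33 to 5.83 CPM at 2 weeks and 22.3, 211, 8.90, 5.70 and 26.3 CPM at 4 weeks. Without animal 8 the rises fell from 6.29 to 4.58 for Mt2, from 4.64 to 3.79 for Mt1 and from 3.44 to 1.83 for Ankrd1, and all 3 kept an adjusted p below 0.05. None of these 3 was called in WT muscle, and their differences in change had adjusted p-values of 0.575, 0.43 and 0.33.

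**Figure D3:**
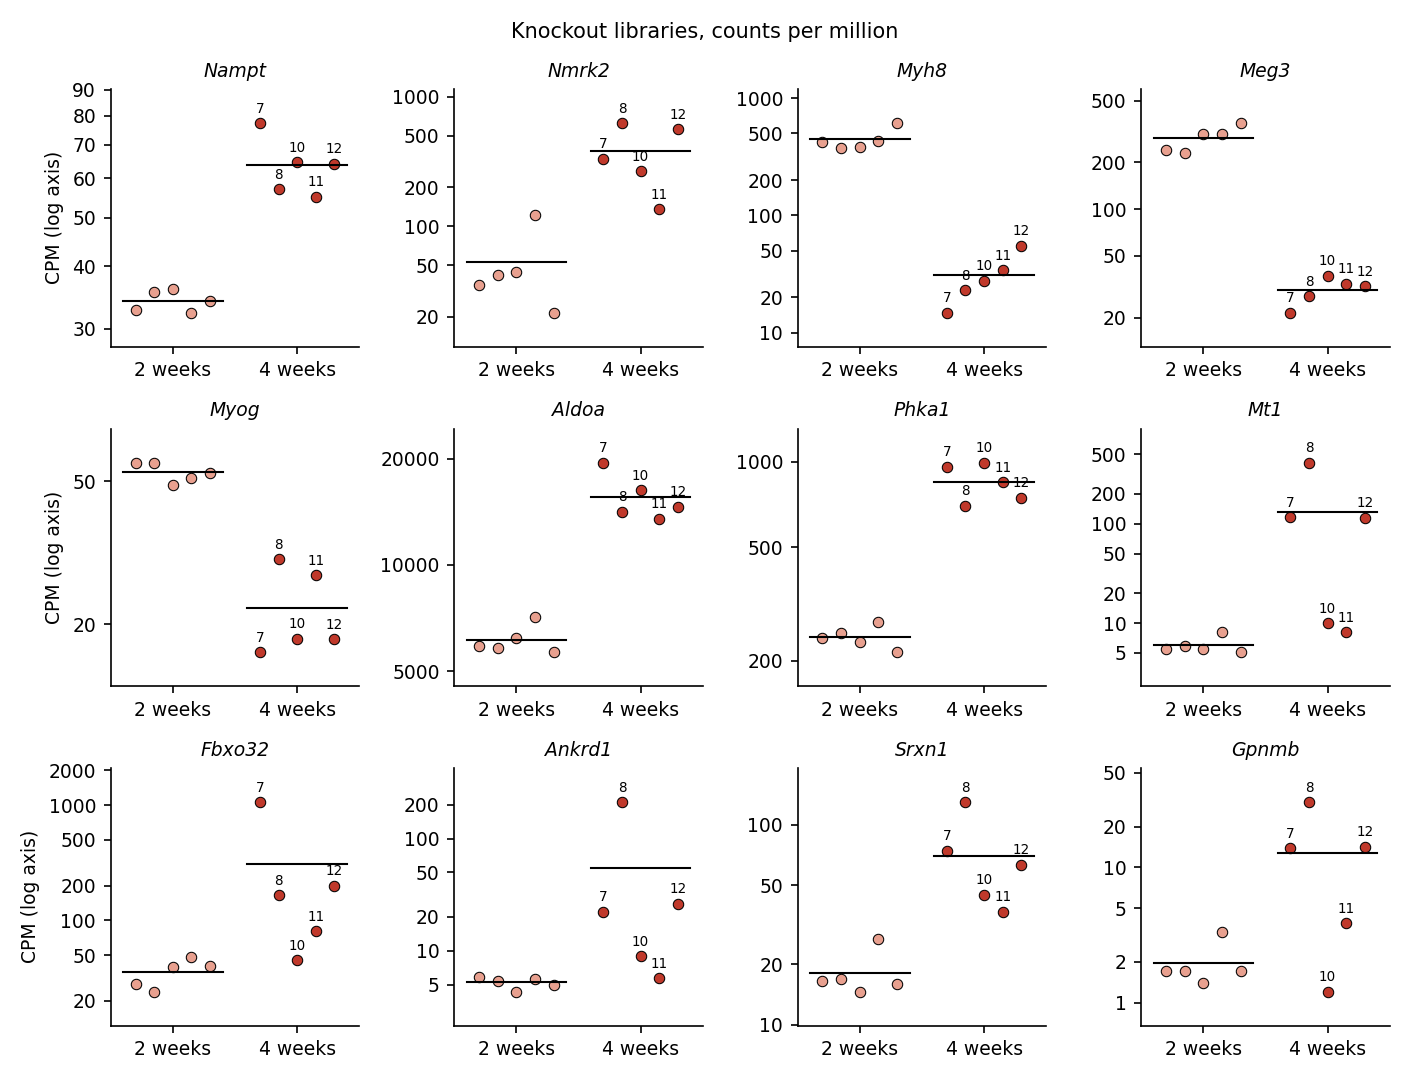
CPM on a log axis of 12 genes in the 5 knockout libraries at 2 weeks and the 5 at 4 weeks, with the 4-week animals numbered and bars at the mean. Nampt, Myh8, Meg3, Myog, Aldoa and Phka1 separate the ages, while Mt1, Ankrd1 and Gpnmb are high in animals 7, 8 and 12 and near the 2-week level in 10 and 11.

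The 12 largest falls included a perinatal myosin, RNAs of an imprinted cluster and histones. Myh8, the perinatal myosin heavy chain, fell by 4.28, Arhgap36 by 3.59, Rtl1 by 3.51, Meg3 by 3.44, Pimreg by 3.02, Mirg by 3.01, Maged2 by 2.89 and Ddc, aromatic amino acid decarboxylase, by 2.84 on the log2 scale. The other 4 were the replication-dependent histone genes Hist1h2bk, Hist1h2ab, Hist1h4b and Hist1h3b, which fell by 2.83 to 2.99; between 56.1% and 74.9% of their 38-base words also occur in other genes, so their separate values are uncertain. All 12 were lower at 4 weeks in every library than in any 2-week library, while 28.6% of all genes did not overlap between the ages. The 12 were chosen as the largest falls in these same libraries, so this separation adds no support. All 12 also fell in WT muscle. Of the 6 largest WT rises, Timp4, an inhibitor of matrix proteases, rose by 2.95 in the knockout against 2.77 in WT, from 4.22 to 7.92 CPM across the 2-week libraries to 35.7 to 55.9 CPM. Mettl21e, a muscle protein-lysine methyltransferase, was the WT rise with the smallest knockout change, 1.19 (SE 0.27) against 2.37 (SE 0.19), with an adjusted p of 0.33 for the difference. It read 0.579 to 0.989 CPM and 1.59 to 2.70 CPM in the knockout and 1.40 ± 0.348 and 7.27 ± 1.46 CPM in WT muscle. Odf3l2 rose by 1.82 (adjusted p = 0.0426), a call lost without animal 8 (1.91, adjusted p = 0.069) and without 5 other libraries, with a value of 0.77 without animal 7.

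Among the contractile genes the developmental myosins Myh8 and Myh3 fell while Myh4 rose. The sequences upstream of these 3 neighbouring genes are shown so that this isoform switch can be read beside its promoters. Each sequence holds the 250 bases before the RefSeq start on the GRCm38.p6 assembly, with capitals at matches to the E-box CANNTG, the core bound by myogenic basic helix-loop-helix factors. The Myh8 window is chr11:67276874-67277123, that of Myh3 chr11:67078050-67078299 and that of Myh4 chr11:67237562-67237811, all on the plus strand.
Myh8: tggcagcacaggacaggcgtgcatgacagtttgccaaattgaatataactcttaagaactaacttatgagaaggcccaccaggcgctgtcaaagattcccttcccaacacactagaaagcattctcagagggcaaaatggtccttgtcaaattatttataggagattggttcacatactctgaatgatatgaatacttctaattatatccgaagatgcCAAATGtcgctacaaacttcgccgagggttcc
Myh3: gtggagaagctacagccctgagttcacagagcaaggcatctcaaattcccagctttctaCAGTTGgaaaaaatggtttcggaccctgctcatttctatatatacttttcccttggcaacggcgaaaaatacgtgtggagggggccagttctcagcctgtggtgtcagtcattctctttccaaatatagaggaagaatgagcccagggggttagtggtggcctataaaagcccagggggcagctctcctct
Myh4: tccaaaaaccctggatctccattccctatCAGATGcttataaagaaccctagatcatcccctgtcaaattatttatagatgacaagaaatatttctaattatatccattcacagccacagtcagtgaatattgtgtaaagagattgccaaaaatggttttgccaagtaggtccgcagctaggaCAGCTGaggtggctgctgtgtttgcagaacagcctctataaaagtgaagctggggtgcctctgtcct
Myh8 and Myh3 hold 1 E-box each and Myh4 holds 2; since 66.2% of 32841 such windows of all genes hold at least 1 (both strands searched, the motif reading the same on each), these matches describe the sequences only. None of the 3 holds the 10-base MEF2-type pattern that was searched, which is in 3.20% of all windows. That pattern has fixed outer bases and free middle bases. Other forms of the motif were not searched, so whether these windows lack a MEF2 site was not tested.

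Myh8 read 421, 376, 383, 429 and 613 CPM at 2 weeks and 14.8, 22.9, 27.8, 34 and 55.2 CPM at 4 weeks, a loss of 19.4-fold with an SE of 0.23 on the log2 scale (adjusted p = 1.17e-06). Myh3, the embryonic heavy chain, read 139, 90.2, 95.5, 139 and 119 CPM and then 17.3, 29.3, 15, 30.4 and 34.8 CPM, and fell by 2.29 (SE 0.27). Both ages were fully separated for each gene, as they were for 28.6% of all genes. WT muscle ended lower for Myh3, at 14.5 ± 1.78 CPM, with a change of -3.01 (SE 0.18), and the difference of 0.76 had an adjusted p of 0.34. Myh4, the heavy chain of the fastest fibres, read 42902, 44119, 38821, 45270 and 40278 CPM and then 52582, 52187, 56908, 60257 and 50664 CPM, a rise of 0.36 (SE 0.12, adjusted p = 0.0378) that read -0.29 with library sizes alone. Myh1 fell by 1.17 (SE 0.15), Myh7, the slow heavy chain, by 1.61 (SE 0.23) and Myh2 by 1 (SE 0.27, adjusted p = 0.0123); without animal 8 Myh2 fell by 0.73 (adjusted p = 0.0653).

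Per kilobase of exon, Myh4 made up 78.3% ± 2.44 (n = 5) of the 6 heavy chains at 2 weeks and 90.1% ± 2.53 at 4 weeks, and the WT shares were 82.8% ± 1.58 and 89.9% ± 1.08 (n = 6 each). The 4-week composition of the 2 genotypes overlapped for every one of the 6 chains. Myh1 went from 14.4% to 6.54% in the knockout and from 11.4% to 6.99% in WT muscle, and Myh2 from 5.38% to 2.95% and from 4.04% to 2.82%. Myh7 ended at 0.388% ± 0.0921 against 0.244% ± 0.0864 in WT, Myh3 at 0.0418% ± 0.0148 against 0.0203% ± 0.00515 and Myh8 at 0.0261% ± 0.0131 against 0.0167% ± 0.00869. Between 19.3% and 33.5% of the 38-base words of Myh1, Myh4, Myh7 and Myh8 also occur in other genes, which limits how exactly reads can be divided among them.

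**Figure D4:**
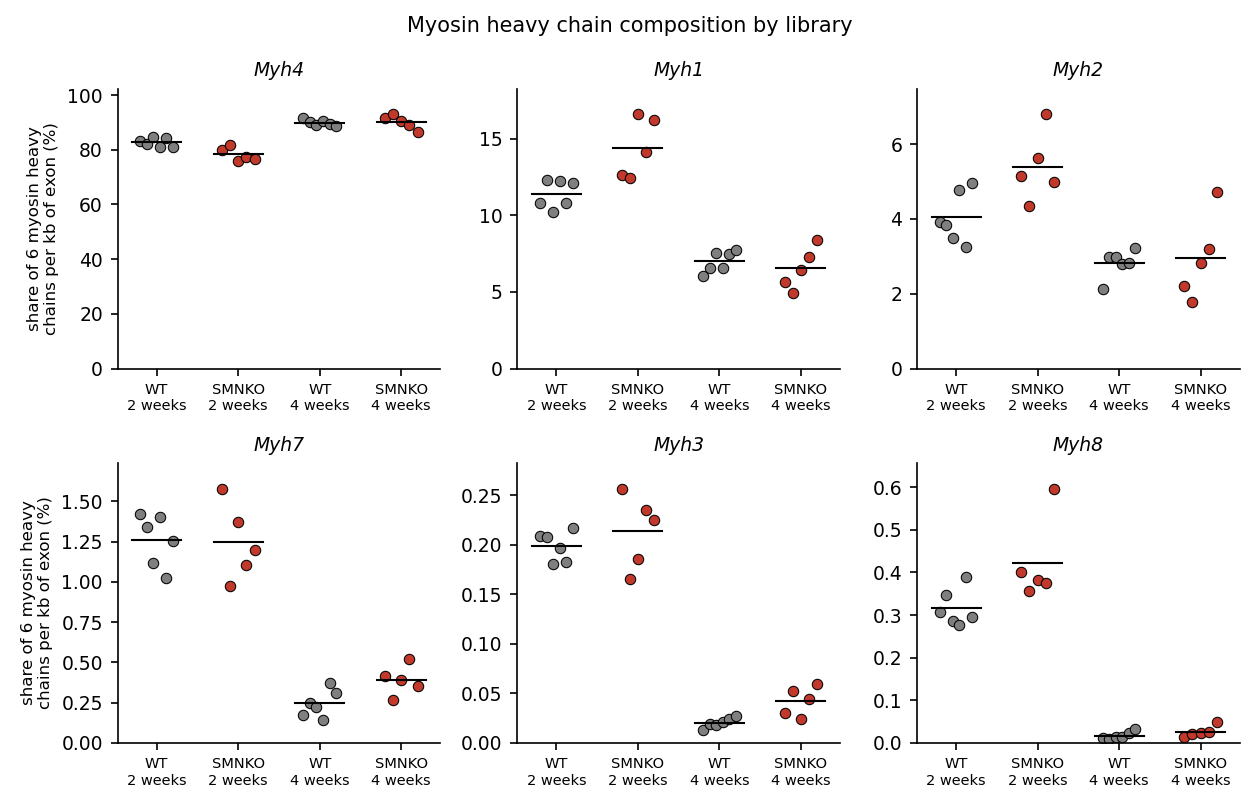
Share of each of 6 myosin heavy chain genes in their summed counts per kilobase of exon, by library, with bars at the group mean. Myh4 rises from 78.3% to 90.1% in the knockout and the developmental chains fall to a few hundredths of a percent, close to the WT libraries of the same age.

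Of 17 genes of the adult fast sarcomere all were tested, and 10 rose and 2 fell (Myh1 and Myh2; without animal 8, 12 and 1), with a median log2 change of 0.61 against -0.00508 over all genes; with library sizes alone none rose and the median was -0.04. Actn3, the alpha-actinin of fast fibres, read 4499, 4178, 4363, 4893 and 4523 CPM and then 9905, 7099, 10786, 10286 and 7632 CPM, a rise of 0.98 (SE 0.15). Fast troponin T, Tnnt3, rose by 0.82 (SE 0.14), the M-band protein Myom2 by 0.74 (SE 0.11) and skeletal actin, Acta1, by 0.63 (SE 0.14), and the WT changes were 1.13, 0.46 and 0.66. None of the 4 overlapped between the ages, while 28.6% of all genes did not overlap. Over all genes 19.4% were higher and 19.9% lower. Among 12 developmental isoforms 8 fell and 1 rose, with a median of -0.68. Without animal 8, 6 fell and 1 rose, with a median of -0.60. Myl6b fell by 1.97, slow troponin I, Tnni1, by 1.16 and Tnnt2 by 0.93. The one that rose was Csrp3, the muscle LIM protein, at 1.73, and Actc1, cardiac actin, did not pass, at 3748 ± 745 and 4457 ± 1983 CPM. Of 12 slow-fibre genes 6 fell and 1 rose, with a median of -0.58 (-0.36 without animal 8, when 5 fell); slow calsequestrin, Casq2, fell by 1.24 (SE 0.17), Myh7b by 1.2 and the tropomyosin Tpm3 by 0.81. For the difference from WT, 4 of the 12 developmental and 5 of the 12 slow genes had an unadjusted p below 0.05, against 10.8% of all genes. None of either list passed the adjusted test.

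Imprinted genes of fetal growth fell almost throughout. Of 18 genes of the imprinted network 17 fell and none rose, with a median of -1.70. Without animal 8, 16 fell. Over all genes 19.9% were lower and 19.4% higher. In the 22-library fit 17 of the list fell in each genotype, and 1 rose in WT muscle. Among all 15296 genes of that fit 3399 fell in the knockout and 4218 in WT muscle. Meg3, a maternally expressed long RNA, read 239, 231, 303, 303 and 358 CPM at 2 weeks and 21.6, 27.7, 37.3, 33.2 and 31.8 CPM at 4 weeks, a fall of 10.9-fold (adjusted p = 7.85e-08). The paternally expressed Rtl1 of the same cluster read 15.3 to 27.9 CPM and then 0.895 to 4.05 CPM. Mest read 71.7, 73.7, 61.7, 63.9 and 80.6 CPM and then 6.56, 10.1, 17.2, 18.2 and 17.6 CPM and fell by 2.73 (SE 0.19), and Ndn fell by 1.86 (SE 0.15); for both genes animals 7 and 8 were the lowest. The WT changes were -1.91 and -0.95, with adjusted p-values for the difference of 0.637 and 0.345. Igf2 fell by 2.16 (SE 0.25), although 85.5% of its 38-base words occur in other genes. Among 11 embryonic regulators 8 were tested, 6 fell and 1 rose; Rian and Mirg, 2 more RNAs of the Meg3 cluster, fell by 2.79 and 3.01 and the transcription factor Sox4 by 1.69. The rise was Hmga1, by 1.26 (SE 0.25), whose words are shared with other genes to 79.5%.

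Cell division genes fell in the knockout as in WT. Of 30 cell cycle genes 23 fell and none rose, with a median of -1.55. Over all genes 19.9% were lower and 19.4% higher. Without animal 8, 28 cell cycle genes fell, without animal 7, 15, and without animal 31, 8. Cdk1 read 7.72, 11.3, 7.42, 6.67 and 7.22 CPM at 2 weeks and 1.29, 4.72, 1.21, 0.854 and 2.22 CPM at 4 weeks. Mki67, a marker of cycling cells, read 47.4, 66.9, 47.4, 42.7 and 56.5 CPM and then 8.90, 35.7, 4.42, 2.35 and 13 CPM. Neither gene overlapped between the ages, while 28.6% of all genes did not overlap, and for both the highest 4-week library was animal 8. Ccnb2 fell by 2.44 (SE 0.40), Prc1 by 2.36 (SE 0.41) and Cenpe by 2.14 (SE 0.38). Of the 30, in the 22-library fit, 26 fell in the knockout and 28 in WT muscle, and none of the 30 had an unadjusted p below 0.05 for the difference. Among all 15296 genes of that fit 3399 fell in the knockout and 4218 in WT muscle.

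The regulators of myogenesis fell for the most part. Mymx and Mymk, the 2 membrane proteins that fuse myoblasts, fell by 3.36 (SE 0.30) and 1.82 (SE 0.22). Mymx read 2.14 to 3.78 CPM and then 0.214 to 0.674 CPM. Mymk read 8.41 to 10.6 CPM and then 1.59 to 4.72 CPM. In both cases animal 8 was highest at 4 weeks. Its library was the smallest, with 6668855 counts, so its low Mymx value rests on few reads. Myog read 56.4, 56.3, 48.7, 51.2 and 52.7 CPM and then 16.7, 30.4, 18.3, 27.4 and 18.2 CPM, a fall of 1.28 (SE 0.17). Pax7, the marker of satellite cells, fell by 1.02 (SE 0.19) from 7.73 ± 1.44 to 4.54 ± 1.24 CPM, and the Notch receptor Notch3 by 0.96 (SE 0.15). In bulk tissue a smaller share of satellite cells and less RNA per cell cannot be told apart. Myf6, the myogenic factor of mature fibres, rose by 0.70 (SE 0.17), from 59.2 ± 3.83 to 93.1 ± 25 CPM, and read 0.14 with library sizes alone. Of 20 genes of the list 19 were tested, 11 fell (12 without animal 8) and 3 rose, with a median of -0.75. The shares over all genes were 19.9% lower and 19.4% higher.

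At the neuromuscular junction the acetylcholine receptor normally exchanges its fetal gamma subunit, Chrng, for the adult epsilon subunit, Chrne. Their upstream windows, chr1:87205561-87205810 on the plus strand and chr11:70619195-70619444 on the minus strand of GRCm38.p6, are shown to set the 2 subunits side by side, with capitals at E-boxes and, in Chrne, at the N-box CCGGAA of synaptic genes.
Chrng: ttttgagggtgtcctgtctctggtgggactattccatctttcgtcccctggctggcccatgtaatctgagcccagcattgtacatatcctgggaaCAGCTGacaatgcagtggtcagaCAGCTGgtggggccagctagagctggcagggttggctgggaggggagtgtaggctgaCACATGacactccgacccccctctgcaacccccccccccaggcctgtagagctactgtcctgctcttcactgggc
Chrne: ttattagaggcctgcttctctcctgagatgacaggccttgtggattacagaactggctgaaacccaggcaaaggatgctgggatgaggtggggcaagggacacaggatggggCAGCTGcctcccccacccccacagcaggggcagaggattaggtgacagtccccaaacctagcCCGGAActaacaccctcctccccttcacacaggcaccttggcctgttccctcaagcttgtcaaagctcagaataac
Chrng holds 3 E-boxes and no N-box, and Chrne holds 1 of each, while 12% of all windows hold an N-box on either strand. Neither subunit's window holds the searched MEF2-type pattern, and other forms of that motif were not searched. Chrng read 1.39, 1.2, 1.85, 1.2 and 1.37 CPM at 2 weeks and 1.04, 2.70, 0.517, 0.712 and 0.719 CPM at 4 weeks. The value of animal 8 rests on few reads, since its library was the smallest, with 6668855 counts. Animal 8 was above every 2-week library and the other 4 below, and the change of -0.42 (SE 0.34) did not pass (adjusted p = 0.348; without animal 8, -0.72 and 0.0586). In WT muscle Chrng fell by 2.16 (SE 0.31, adjusted p = 5.05e-06), and the difference of 1.65 (SE 0.47) had an adjusted p of 0.33. Chrne fell by 0.46 (SE 0.14, adjusted p = 0.0191), from 19.9 ± 1.62 to 15.7 ± 3.86 CPM, with overlap. Chrna1, the alpha subunit, read 44 to 51.7 CPM and then 25.6 to 38.7 CPM and fell by 0.59. Lrp4, the agrin receptor of the fibre, fell by 1.11 (SE 0.16) and the potassium channel Kcnn3 by 1.04 (SE 0.17). Scn4a, the sodium channel of adult fibres, read 200, 172, 186, 190 and 198 CPM and then 367, 436, 341, 358 and 342 CPM and rose by 1 (SE 0.10), as in WT (0.99). Of the 22 genes, 21 were tested, 8 fell and 3 rose, against 19.9% lower and 19.4% higher over all genes. The median was -0.05 (-0.18 without animal 8).

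Calcium handling genes rose in part. Of 25 genes 9 rose and 2 fell, against 19.4% higher and 19.9% lower over all genes, and 13 rose without animal 8. The median of 0.32 read -0.33 with library sizes alone. The 22-library fit gave 17 rises in the knockout and 20 in WT muscle, and 2 fell in each. Among all 15296 genes of that fit 3666 rose in the knockout and 4125 in WT muscle. Ryr1, the calcium release channel, read 2206, 1721, 2095, 2231 and 2424 CPM and then 4553, 5000, 4221, 4423 and 3588 CPM, a rise of 1.04 (SE 0.14). The calcium pump Atp2a1 rose by 0.77 (SE 0.12) from 8204 ± 487 to 14184 ± 1225 CPM. The 2 falls were Ryr3, the perinatal release channel, by 2.24 (SE 0.17), and the pump inhibitor sarcolipin, Sln, by 2.74 (SE 0.38). None of these 4, chosen by the smallest p of this same change, overlapped between the ages, while 28.6% of all genes did not overlap.

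Glycolysis genes rose almost throughout. Of 27 genes of glycolysis and glycogen use 24 rose and none fell, with a median of 0.84 (without animal 8, 24 rose and Pgm2 fell). Over all genes 19.4% were higher and 19.9% lower. With library sizes alone 5 of the list rose and its median was 0.23. Phka1, the muscle subunit of phosphorylase kinase, read 240, 251, 232, 274 and 215 CPM and then 962, 700, 993, 847 and 747 CPM, a rise of 1.83 (SE 0.14, adjusted p = 1.67e-05). Aldoa, aldolase of muscle, read 5873, 5827, 6200, 7101 and 5659 CPM and then 19492, 14147, 16252, 13527 and 14625 CPM, a rise of 1.41 (SE 0.14). Glycogen phosphorylase, Pygm, rose by 1.17 (SE 0.13) and glycogenin, Gyg, by 1.02 (SE 0.11). Gapdh rose by 1.04, with 62.0% of its words shared with other genes. All 5, chosen by the smallest p of this same change, were fully separated between the ages, as were 28.6% of all genes. Their WT changes, 1.58, 1.39, 1.17, 0.92 and 0.96, were close in size, and the differences had adjusted p-values of 0.552 to 0.997. As a share of all counts, glycolysis genes made up 4.22% to 4.92% at 2 weeks and 6.69% to 7.84% at 4 weeks in animals 7, 10, 11 and 12, and 2.72% in animal 8.

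Oxidative genes had smaller medians, and their counts depended on animal 8. Over all genes 19.4% were higher and 19.9% lower. Of 26 citrate cycle genes 14 rose and none fell (24 without animal 8, 8 without animal 7, 7 without animal 31), with a median of 0.34 that read 0.52 without animal 8 and -0.26 with library sizes alone. Idh3a, of isocitrate dehydrogenase, read 405, 410, 431, 453 and 408 CPM and then 689, 617, 791, 664 and 752 CPM and rose by 0.70 (SE 0.11); Got1 of the malate-aspartate shuttle rose by 0.90 and pyruvate carboxylase, Pcx, by 0.99. Of 36 nuclear genes of complex I, 2 rose, among them Ndufb5 by 0.39 (adjusted p = 0.0432), and none fell. Without animal 8 the number that rose was 21, and without animal 7 it was 0. The median was 0.10 (0.30 without animal 8, -0.50 with library sizes alone). In the 22-library fit 10 rose in the knockout, with a median of 0.18, and 27 in WT muscle, with a median of 0.37. Among all 15296 genes of that fit 3666 rose in the knockout and 4125 in WT muscle. Of complexes III to V, 35 genes were tested and 2 rose, Cox6a2 by 0.65 (SE 0.11) and Uqcrc1 by 0.41 (adjusted p = 0.0484), and 14 rose without animal 8. Fitted with the WT libraries, 4 rose in the knockout and 18 in WT muscle. The calls of Ndufb5 and Uqcrc1 were lost when most single libraries were left out, and their values were 0.60 and 0.62 without animal 8 and -0.19 and -0.17 with library sizes alone. Among 32 genes of fatty acid oxidation and ketone use 2 rose, Oxct1 by 1.11 (SE 0.14) and Bdh1, both of ketone use, and 13 rose without animal 8.

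Messenger RNAs of the mitochondrial genome moved with animal 8 in the other direction on the TMM scale. Of the 13, 8 were tested, 3 were listed at 0 in all 10 libraries, and 5 rose with a median of 1.15, which was 0.50 without animal 8, when 3 rose. Over all genes 19.4% were higher and 19.9% lower. With library sizes alone 1 of the list rose and its median was 0.37. As a share of all counts these RNAs made up 1.42% in animal 8, whose scaling factor was 0.445. The other knockout libraries held 1.48% to 2.30%. mt-Nd1 read 1011, 969, 1422, 992 and 1341 CPM and then 2165, 4271, 2209, 1485 and 1838 CPM and rose by 1.14 (SE 0.25; 0.74 without animal 8). mt-Nd4 read 323 to 491 CPM and then 599, 2122, 567, 405 and 532 CPM, so its rise of 1.17 (adjusted p = 0.0328) was 0.41 (adjusted p = 0.0652) without animal 8. The rise of mt-Cytb was 0.74, and 0.31 (adjusted p = 0.144) without animal 8. The mitochondrial genome as a whole, with its ribosomal RNAs, held 19.8% of the counts of animal 8, and the part of this in the result was not tested. Other genes share 58.4% of the words of mt-Co1 and 62.6% of those of mt-Nd4.

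On the TMM scale translation factors mostly rose, and ribosomal proteins moved little. Of 23 genes of translation and ribosome biogenesis 12 rose and 1 fell, with a median of 0.39, against 19.4% higher and 19.9% lower over all genes. Without animal 8, 10 rose and 2 fell, with a median of 0.20, and with library sizes alone the median was -0.29. Elongation factor 2, Eef2, read 1150, 1073, 1089, 1390 and 1134 CPM and then 2394, 1874, 1633, 1827 and 1947 CPM, a rise of 0.79 (SE 0.13) against 0.29 (SE 0.10) in WT, with an adjusted p of 0.345 for the difference. The initiation scaffold Eif4g1 rose by 0.72 (SE 0.09). Of 57 cytosolic ribosomal protein genes 14 fell, against 19.9% of all genes, and 1 rose, with a median of -0.14. Without animal 8, 13 fell and 4 rose, and the median was -0.06. With library sizes alone 35 fell and none rose, with a median of -0.74. Rps27a fell by 0.40 (SE 0.08) and Rpl32 by 0.44 (SE 0.09), and for both the ages were separate, as for 28.6% of all genes. Other genes share 44.9% of the 38-base words of Rps27a and 40.3% of those of Rpl32.

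Matrix genes fell in both genotypes. Of 35 genes 27 fell and 1 rose, the protease inhibitor Timp1, with a median of -0.97. Without animal 8, 26 fell and none rose. Fitted with the WT libraries, 29 fell in the knockout and 28 in WT muscle, while 3399 and 4218 of all 15296 genes fell. The summed level of the 35 was 24971 to 36148 CPM at 2 weeks and 9914 to 19893 CPM at 4 weeks. Col1a1, the main fibrillar collagen chain, read 9661, 9488, 5882, 7770 and 8312 CPM and then 1477, 2202, 2105, 4779 and 3731 CPM, a fall of 1.84 (SE 0.30). Col12a1 fell by 1.89 (SE 0.21), Col14a1 by 1.86 (SE 0.19), Thbs2 by 1.44 (SE 0.17) and Col18a1 by 1.41 (SE 0.17), and all 5 were lower at 4 weeks in every library. Over all genes 28.6% did not overlap between the ages. Of 13 fibroblast markers 6 fell and 2 rose, against 19.9% lower and 19.4% higher over all genes. Their summed level overlapped between the ages, at 1475 to 1876 CPM at 2 weeks and 1070 to 1896 CPM at 4 weeks. Of 9 tendon markers 5 fell, with sums of 391 to 651 and 291 to 489 CPM; without animal 7 and without animal 8 the number was 3. The part of these cells in the result was not tested. The growth factor Igf1 read 92.5 to 131 CPM and then 42.5, 36.8, 89.4, 87.6 and 86.0 CPM, a fall of 1.04 (SE 0.21) that was -0.30 in pool B alone and -1.44 in pool A alone; in WT it was -0.32 (adjusted p = 0.102). The binding proteins Igfbp7 and Igfbp4 fell by 0.83 and 0.79.

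Genes of protein breakdown rose in both genotypes, and the ubiquitin ligases best known from wasting muscle varied most. Of 22 genes 17 rose and 1 fell (Nedd4, not called without animal 8), with a median of 0.72. Over all genes 19.4% were higher and 19.9% lower. Fitted with the WT libraries, 18 of the list rose in the knockout and 13 in WT muscle, while 3666 and 4125 of all 15296 genes rose. With library sizes alone 8 of the list rose and its median was 0.16. Fbxo40, a muscle ubiquitin ligase subunit, read 162, 146, 152, 195 and 143 CPM and then 512, 453, 453, 468 and 440 CPM, a rise of 1.60 (SE 0.11) with the 4-week libraries close together. The autophagy receptor Sqstm1 rose by 1.5 (SE 0.15), Fbxo31 by 1.19 and Map1lc3b by 0.76. Fbxo32, atrogin-1, read 28, 24.1, 39.6, 47.7 and 40.1 CPM and then 1060, 165, 44.9, 80.9 and 199 CPM, a rise of 3.11 (SE 0.77, adjusted p = 0.0142). Animal 7 was far above the rest and animal 10 within the 2-week range. Trim63, MuRF1, read 67.8 to 80.1 CPM and then 661, 195, 131, 152 and 255 CPM and rose by 2.08 (SE 0.35), with no overlap. The WT changes of Fbxo32 and Trim63 were 0.83 and 0.86, and the difference had an adjusted p of 0.345 for each; these 2 genes were named after their values were seen.

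Stress responses rose by varying amounts. Over all genes 19.4% were higher and 19.9% lower. Of 24 genes of oxidative stress and the NRF2 response 16 rose (17 without animal 8) and none fell. Their median of 0.51 read -0.07 with library sizes alone. In the 22-library fit 17 rose in the knockout and 16 in WT muscle, while 3666 and 4125 of all 15296 genes rose. Gstm1 rose by 1.67 (SE 0.10), against 1.65 in WT. Srxn1, sulfiredoxin, read 16.6, 17, 14.6, 26.9 and 15.9 CPM and then 74.1, 130, 44.8, 36.8 and 63.3 CPM and rose by 2.12 (SE 0.26) against 0.63 (SE 0.23) in WT, with an adjusted p of 0.296 for the difference. Txnrd1, thioredoxin reductase, rose by 1.27 (SE 0.13) against 0.56, also with 0.296. Of 30 genes of the integrated stress response 28 were tested, 14 rose and 3 fell (5 without animal 8), with a median of 0.37 (-0.25 with library sizes alone): Atf4, its main factor, read 87.8 to 109 CPM and then 140 to 188 CPM and rose by 0.80 (SE 0.09), and Cebpb rose by 1.5. Fgf21 and Gdf15, hormones of this response, were not tested, with at most 0.0727 and 0.674 CPM in any library. Of 19 p53 targets 18 were tested, 9 rose and 2 fell (4 without animal 8), with a median of 0.46 (-0.11 with library sizes alone); Aen rose by 0.99 (SE 0.10). Phlda3 read 32.6 to 46.6 CPM and then 190, 179, 61.1, 44.8 and 145 CPM, high in the same 3 animals as Mt1.

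Inflammatory and macrophage transcripts rose in some animals only. Of 23 immediate early and inflammatory genes 19 were tested, 10 rose and none fell, with a median of 1.18; without animal 8, 4 rose and 1 fell, with a median of 0.55. In the 22-library fit 12 of 20 rose in the knockout, with a median of 1.12, and 1 in WT muscle, with a median of 0.02. Nr4a3, an orphan nuclear receptor induced by exercise, read 1.59 to 2.69 CPM and then 8.65, 74.5, 9.18, 4.20 and 45.7 CPM, a rise of 3.90 (adjusted p = 0.0112) that was 2.60 (adjusted p = 0.0621) without animal 8. Ier3 rose by 1.32 (SE 0.25). The macrophage markers summed to 316, 360, 285, 311 and 302 CPM at 2 weeks and 507, 768, 235, 227 and 428 CPM at 4 weeks. Animals 7, 8 and 12 were above, and animals 10 and 11 below, every 2-week library. Of 21 markers 5 rose, a share near the 19.4% of all genes, and none fell. The median was 0.60 (0.38 without animal 8, -0.02 with library sizes alone). The number that rose was 1 without animal 8. It ran from 1 to 10 when single libraries were left out, highest without animals 10 and 31. Fitted with the WT libraries, 9 rose in the knockout, with a median of 0.505, and none in WT muscle, with a median of -0.32. Among all 15296 genes of that fit 3666 rose in the knockout and 4125 in WT muscle. Gpnmb, a glycoprotein of phagocytic macrophages, read 1.40 to 3.30 CPM and then 13.9, 30.4, 1.21, 3.84 and 14.2 CPM. Its rise of 2.91 (SE 0.67, adjusted p = 0.00863) was 2.45 without animal 8. Cd68 read 3.21 to 3.82 CPM and then 15.3, 55.3, 2.24, 1.14 and 7.25 CPM (2.15, adjusted p = 0.0413; without animal 8, 1.25 and 0.119), and Adgre1, which encodes F4/80, did not pass at 9.13 ± 0.710 and 11.8 ± 7.92 CPM (change 0.38; 0.02 without animal 8). For the difference from WT, 9 of the 20 inflammatory and 10 of the 21 macrophage genes had an unadjusted p below 0.05, against 10.8% of all genes. Such counts were not particular to these lists, with 9 of 14 Schwann cell and nerve markers and 10 of 21 dystrophin complex and costamere genes. No gene of any of these lists passed the adjusted test.

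**Figure D5:**
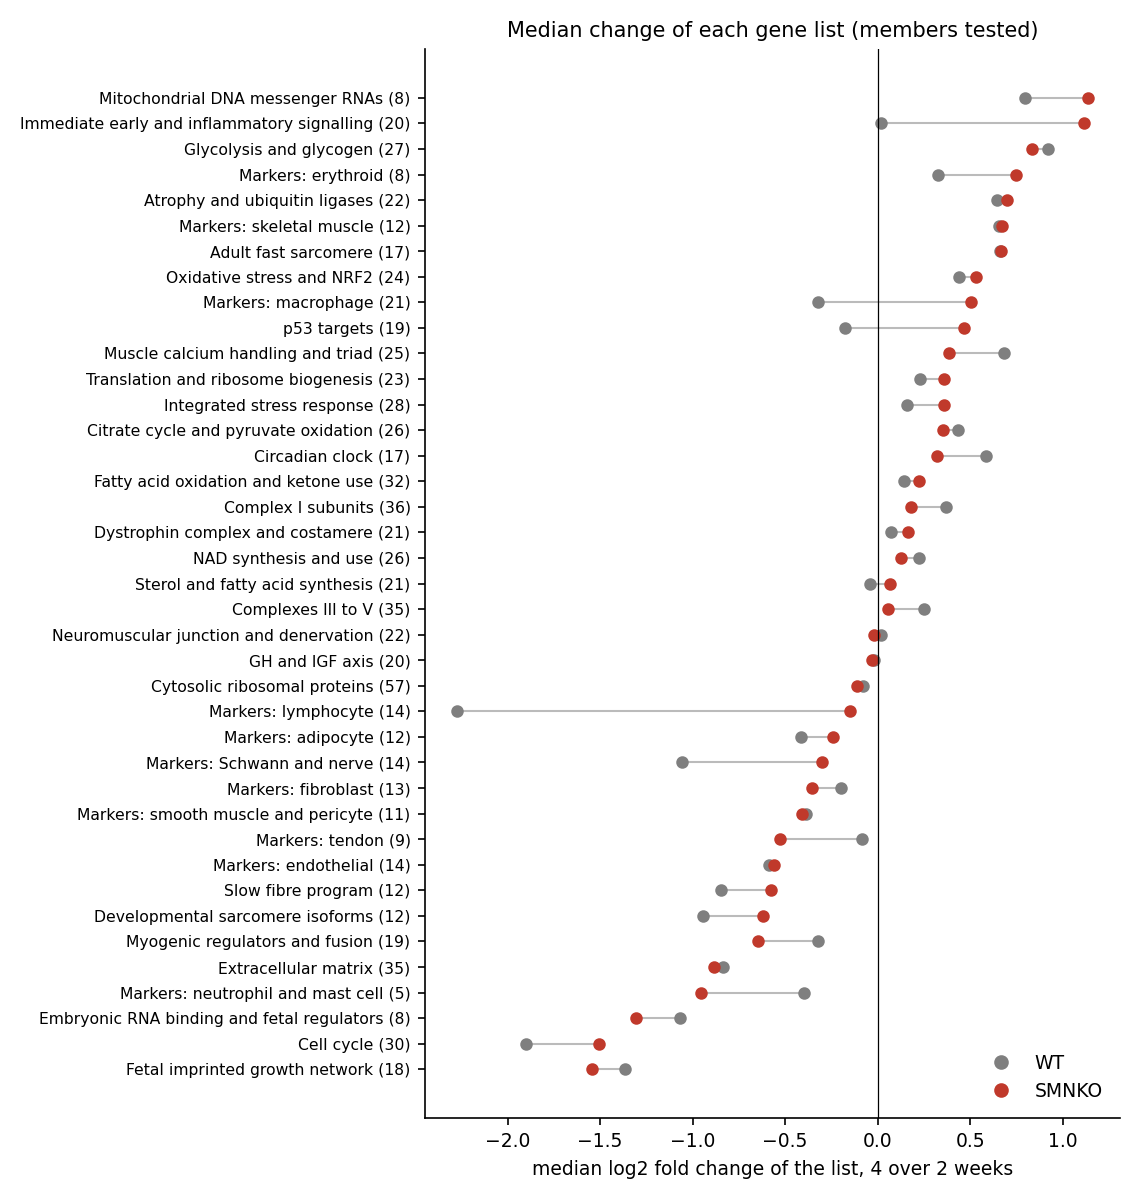
Median log2 change from 2 to 4 weeks of each gene list in WT and SMNKO muscle on the TMM scale, from the 22-library fit, with the number of members tested. The lymphocyte markers show the widest gap (WT -2.28, SMNKO -0.15), with none of 14 called in either genotype, followed by the inflammatory, macrophage and Schwann cell lists.

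Markers of other cells in the muscle gave lower or mixed levels. Over all genes 19.4% were higher and 19.9% lower. Of 14 endothelial markers 10 fell and 2 rose, with sums of 833 to 990 CPM at 2 weeks and 479 to 705 CPM at 4 weeks; Cdh5 fell by 0.91 (SE 0.15). Of 14 Schwann cell and nerve markers 2 fell, Mag by 1.25 (SE 0.28) and Gldn by 0.91 (adjusted p = 0.0483, lost when any of 7 libraries was left out), with a median of -0.44. Without animal 8, 1 fell and the median was -0.20. In the 22-library fit 4 fell in the knockout, with a median of -0.30, and all 14 in WT muscle, with a median of -1.06. Among all 15296 genes of that fit 3399 fell in the knockout and 4218 in WT muscle. All 4 mast cell markers tested fell, while no neutrophil marker passed the filter of the 10-library fit. Lymphocyte markers summed to 9.27 to 74.6 CPM at 2 weeks and 10.1 to 129 CPM at 4 weeks, and none of the 5 tested was called. Of erythroid markers 5 of 7 rose, none of them without animal 7, and 6 of 8 rose without animal 8.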

How the data were processed

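The deposited table holds whole-number counts per Ensembl gene for 50686 genes in 37 libraries, as the authors left them, with no normalization. Per the submitters' processing notes, the build was mm10 and the tools included featureCounts 1.5.2, STAR 2.5.2b and edgeR 3.22.0, with no roles given. The annotation and the strand setting are not given in the sources used here, so values of overlapping or near-identical genes are uncertain. Symbols and positions came from GENCODE vM21 (GRCm38), where 50462 identifiers had an entry.

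Genes were kept by filterByExpr (minimum count 10, minimum total 15), scaled by TMM, and tested with edgeR 4.0.16 in R 4.3.3 (robust quasi-likelihood F-test) with terms for age and pool in the 10 knockout libraries, which left 19417 genes with no count and at most 0.235% of any library's counts outside the fit. The WT change and the difference between genotypes came from 1 fit of 22 libraries. Calls have a Benjamini-Hochberg adjusted p below 0.05 over all genes tested. CPM use the TMM factors, and positions use log2 CPM with a prior count of 2. Promoter sequences came from RefSeq (GRCm38.p6). The code was tested on simulated data.

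The members, the 39 gene lists (821 entries) and the tests were chosen with earlier results of these data known. Named genes are Nampt, the 12 largest rises and falls (average log2 CPM 1 or higher, called without animal 8 too), the 6 largest WT rises and falls, genes called for the difference, and up to 4 called members of each list with the smallest p. Predicted, mitochondrial and sex-linked genes were left out of the ranking, and some genes the rule names are not reported here. Acta1, Actc1, Adgre1, Anxa4, Cd55, Actn2, Prss55, Chrna1, Chrne, Chrng, Col1a1, Csrp3, Fbxo32, Trim63, Fgf21, Gdf15, Mki67, Nedd4, Pgm2, Timp1, Myf6, Pax7, Myh2, Myh4, Nmrk1 and Tnnt2 were named for their role after their values were seen. Alternatives were RLE factors, library sizes alone, no filter, no pool term, each pool alone, DESeq2 1.42.0, all 37 libraries, rRNA genes removed, a sex term, and each library left out.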

Additional observations from a re-analysis of the deposited data

Results flagged for a closer look

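Within the groups of 5 knockout libraries 56 sets of values were screened for a single library far from the others, and 4 were found; chance alone flags about 1 in 20 such sets. Myh8 at 2 weeks read 613 CPM in animal 31, against 376 to 429 CPM in the other 4 libraries, and animal 31 is the only 2-week library of pool B. Hist1h3b at 2 weeks read 15.3 CPM in animal 28, against 8.90 to 9.58 CPM. The share of counts in nuclear rRNA genes was 0.519% in animal 31, against 0.0208% to 0.0775% in the others of its age, and 29.3% in animal 8 at 4 weeks.

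The change of Ift122 differed between the genotypes by 0.767 on the log2 scale, a rise in all 5 knockout libraries at 4 weeks against all 5 at 2 weeks that WT muscle did not show.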

How the results depend on the processing

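The number of genes that changed in the knockout between 2 and 4 weeks was 5704, and 807 in pool B alone, where 1 library stands for 2 weeks and is assumed to vary like the others; leaving out single libraries gave 3946 (without animal 7) to 6623 (without animal 8). The WT number was 8343, and 4418 in pool A alone. For the difference between genotypes the number was 1, and 0 with library sizes alone, in pool B alone and with all 37 libraries, 8 without the filter, 3 without the pool term, 43 with DESeq2, 239 in pool A alone, and 0 to 46 with single libraries left out. Nampt, at 0.94, read 0.343 with library sizes alone. Of 158 named genes 44 gave the same verdict under every alternative; of 3318 comparisons 3020 gave the same verdict, 285 lost the call and 13 turned sign. With library sizes alone Ift122 read -0.0202, Ogdh -0.0600, Ndufb5 -0.187, Uqcrc1 -0.173, mt-Cytb -0.0274, Sirt2 -0.0855, Nmnat3 -0.116, Wdr43 -0.0939, Polr1b -0.166, Nars -0.0843 and Cars -0.122. In pool B alone Itgam read -0.168 and Plin1 0.0181. The cause was not tested. No paired analysis was possible because the 2 ages share no animal number. The depth of animal 8, 6668855 counts of which 29.3% were rRNA, limits its low values most.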

Other observations

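Some clock, membrane and lipid genes changed in the knockout between 2 and 4 weeks. Over all genes tested 19.4% were higher and 19.9% lower. Of 17 clock genes 5 rose (6 without animal 8) and 1 fell, with a median of 0.34 that read -0.30 with library sizes alone. In the 22-library fit 7 clock genes rose in the knockout and 11 in WT muscle, while 3666 and 4125 of all 15296 genes rose. The period gene Per1 rose by 1.15 (SE 0.15) and the repressor Nr1d1 by 1.39 (SE 0.27), with animal 8 the highest for both at 55.6 and 70.5 CPM. The hour of tissue collection is not given in the sources used here.

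Of 21 genes of the dystrophin complex and the costamere, which tie the contractile apparatus to the membrane, 5 rose and 3 fell, with a median of 0.15. Without animal 8, 6 rose and 5 fell, with a median of -0.03, and with library sizes alone the median was -0.53. Desmin, Des, read 1532, 1387, 1515, 1622 and 1521 CPM and then 3455, 3778, 2507, 2379 and 2683 CPM, a rise of 1.06 (SE 0.13) against 0.65 (SE 0.09) in WT muscle. Alpha-sarcoglycan, Sgca, rose by 0.67 (SE 0.12), while sarcospan, Sspn, fell by 0.63 (SE 0.09), and none of these 3 overlapped between the ages. Over all genes 28.6% did not overlap. Of 21 genes of sterol and fatty acid synthesis 4 rose and 1 fell (2 without animal 8), and Acaca, which makes malonyl-CoA, rose by 0.95 (SE 0.14), although 37.6% of its 38-base words occur in other genes.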
